A study of Mus musculus with 6 samples.

Results

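The genes of 10 neutrophil granule proteins were followed in RNA from subchondral bone of the condyle, the head of the lower jaw in the temporomandibular joint of mice. They were taken by symbol from a table of 23170 genes, and all 10 were found. By class they are 4 azurophil granule genes (Mpo, Elane, Prtn3 and Ctsg), 4 specific granule genes (Ltf, Camp, Ngp and Lcn2) and 2 genes of the gelatinase or late class (Mmp8 and Mmp25). The study compared 3 libraries of partial discectomy, the removal of part of the joint disc, with 3 of a sham operation. All mice are labelled wild type with the age P6w+PO2w, which the labels do not spell out. Surgery was on 1 side, and bone came from the operated joint. The sample descriptions end in LPD for partial discectomy and in Rctrl for sham, which is not spelled out. If L and R stand for left and right, side and operation cannot be told apart. Nothing in the labels states that each library was made from a different mouse, so the spread between them may be partly technical.

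Neutrophils store their enzymes and antimicrobial proteins in granules that are made one class after another while the cell matures in the marrow. Azurophil granules are filled first, in promyelocytes, with myeloperoxidase and serine proteases. Specific granules follow in myelocytes and metamyelocytes, and gelatinase granules in band and segmented cells. The messages of each class are made mainly at its own stage, so that circulating neutrophils carry little message for azurophil proteins.

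All 10 granule genes had a higher mean after partial discectomy than in sham, and the folds of the azurophil genes were the smallest of the 3 classes. With the table's floor of 1 subtracted, the folds were 4.67 to 5.88 for azurophil genes, 12.8 to 19.0 for specific genes, and 12.3 and 20.8 for Mmp25 and Mmp8. Of the 10, 8 rose by the adjusted p of the authors' deposited table and none fell, against 2.28% of all genes called higher and 0.104% called lower. The calls covered 2 of 4 azurophil, 4 of 4 specific and 2 of 2 late genes. The uncalled genes were Mpo and Elane, for which the authors' deposited table gave an unadjusted p of 0.00493 and 0.00502. All 5 red cell markers also rose in this comparison, with summed levels of 214 after partial discectomy and 10.8 in sham, and what they share with the granule genes was not tested. In bulk RNA, more cells of a type and more RNA per cell cannot be told apart.

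A call means an adjusted p under 0.05 in the authors' deposited table, adjusted by Benjamini-Hochberg over all 23170 genes. The statistical model behind it is not given in the sources used here. A level is a group mean of normalized expression minus 1, since the smallest group mean in the table is exactly 1. The unit is not named and may or may not be per length, so levels are compared between groups for 1 gene and not between genes. Values per library were not analysed here. The table does give the highest of the 6 library values and their geometric mean for each gene. For all 10 genes the highest value exceeded the whole sham total, so it belongs to a partial discectomy library. Which library that was is not known and need not be the same for each gene. From the highest value, the geometric mean and both group means, limits were computed on the lowest partial discectomy library and on the highest sham library. Such limits show that all partial discectomy libraries lay above all sham libraries for 1.58% of the table's genes and for 8 of the 10 granule genes. The highest value could be placed in 531 genes of the table, and of these 68.9% had groups apart in this way.

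Bases before the RefSeq start site are shown for 5 genes, 2 azurophil, 2 specific and 1 late, because the classes are made at different stages under different transcription factors. PU.1 acts from the earliest myeloid stages, and C/EBP-epsilon is the factor known to be needed for specific granule genes. Capitals mark matches to GAGGAA, the core bound by PU.1, or to TTGCNNAA, a C/EBP pattern, each searched on both strands. The stretches lie outside annotated exons, are given 5′ to 3′ on the plus strand, on which all 5 genes lie, and come from RefSeq on build GRCm38.p6. Elane is chr10:79886162-79886246, Prtn3 chr10:79879517-79879613, Ltf chr9:111019172-111019270, Ngp chr9:110419648-110419745 and Mmp8 chr9:7558329-7558428. The RefSeq start differs from the gene start in the authors' deposited table, which is the one given with each gene further on. It lies downstream by 65 bases in Elane, 5191 in Prtn3, 21 in Ltf and 61 in Ngp, and upstream by 27 bases in Mmp8. The Prtn3 stretch therefore lies inside the gene as the table places it, between exons.
Elane: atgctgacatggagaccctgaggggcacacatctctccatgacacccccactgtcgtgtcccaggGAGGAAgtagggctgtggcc
Prtn3: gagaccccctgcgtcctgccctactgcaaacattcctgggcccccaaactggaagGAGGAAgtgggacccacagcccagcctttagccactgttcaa
Ltf: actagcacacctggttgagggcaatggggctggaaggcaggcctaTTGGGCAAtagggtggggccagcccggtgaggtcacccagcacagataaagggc
Ngp: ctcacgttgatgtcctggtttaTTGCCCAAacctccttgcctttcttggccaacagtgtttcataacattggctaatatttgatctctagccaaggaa
Mmp8: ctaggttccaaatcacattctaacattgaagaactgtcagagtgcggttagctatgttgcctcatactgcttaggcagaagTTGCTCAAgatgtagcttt

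Counted from the RefSeq start, the PU.1 pattern stands 85 to 80 bases before the start of Elane and 95 to 90 before that of Prtn3, in both with the same strand as the gene. In Ltf the C/EBP pattern stands 75 to 68 bases before the RefSeq start, in Ngp 138 to 131, and in Mmp8 19 to 12. Further matches in these genes lie outside the printed stretches. Ngp has another C/EBP match at 11 to 4 bases before the start. The PU.1 pattern also matched in Ltf at 157 to 152 and in Mmp8 at 219 to 214, on the strand opposite to the gene. The printed stretches were set by hand and leave these further matches out. In them the PU.1 pattern stands only in the azurophil genes and the C/EBP pattern only in the others. That split does not hold for the PU.1 pattern over all bases searched. Over the 250 bases before the RefSeq start of all 10 genes, TTGCNNAA was found in 0 of 4 azurophil, 3 of 4 specific and 1 of 2 late genes, and in 9.55% of 27025 promoters. Those with it were Ltf, Ngp, Lcn2 and Mmp8, and the Lcn2 match lies in an alternative exon. The pattern GAGGAA was found in 4 of 4 azurophil, 2 of 4 specific and 2 of 2 late genes, and in 23.1% of all promoters. TGTGGT, the core bound by RUNX factors, was found on either strand in Ctsg alone of the 10, and in 14.2% of all promoters. TATAAA on the gene's strand was found in 0 of the 10 and in 8.12% of all promoters. No match of one pattern overlapped a match of another in these genes. A match is a run of letters and not a measured binding site, and the lack of one says nothing of the factor.

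The azurophil genes were higher after partial discectomy with a spread between libraries that differed from gene to gene. Mpo encodes myeloperoxidase, which makes hypochlorous acid, and lies on chromosome 11 from 87793581 to 87804413 in build mm10. Its level was 88.4 after partial discectomy and 17.6 in sham. The highest library stood at 122, the other 2 partial discectomy libraries averaged 71.7, and no sham library can have exceeded 42.2. The lowest partial discectomy library stood between 21.7 and 71.7, so that an overlap with sham is possible. The ratio in the authors' deposited table was 4.80 (95% limits 1.44 to 16.0, adjusted p = 0.111), and Mpo was not called. Elane, neutrophil elastase (chromosome 10, 79886247 to 79888215), had a level of 24.7 after partial discectomy and 5.11 in sham. For Elane too the groups may overlap, as the lowest partial discectomy library stood at 3.15 or more and the highest sham library at 12.3 or less. Elane had a ratio of 4.21 in the authors' deposited table (1.47 to 12.1, adjusted p = 0.111) and was not called.

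Prtn3 and Ctsg rose. Prtn3 encodes proteinase 3, a serine protease close to elastase, and lies next to Elane on chromosome 10 (79874476 to 79883174), 3072 bases away. Its level was 10.2 after partial discectomy and 1.73 in sham. Its highest library stood at 12.8 and the mean of the other 2 at 8.82. Every partial discectomy library, at 4.82 or more, lay above every sham library, at 3.62 or less. In the authors' deposited table the ratio of Prtn3 was 4.09 (2.21 to 7.55, adjusted p = 0.0242). Ctsg, cathepsin G, another serine protease of the same granules (chromosome 14, 56099881 to 56102574), had a level of 9.90 after partial discectomy and 2.12 in sham. Its highest partial discectomy library stood at 11.7 and the other 2 averaged 8.998, so that no library stood far above the others. All 3 lay at 6.28 or more, and sham libraries at 4.51 or less. The authors' deposited table gave Ctsg a ratio of 3.50 (1.82 to 6.73, adjusted p = 0.0479), close to the threshold. The 2 called azurophil genes thus had the narrower limits of the class. Their ratios were the smaller ones in the authors' deposited table, while with the floor removed Prtn3 had the largest fold of the class, 5.88.

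Mpo and Prtn3 overlap genes on the other strand, Gm11505 and Plppr3, and the sources used here do not say whether counting used strand. Reads of such pairs cannot then be told apart. Gm11505, a long noncoding gene, had a ratio of 3.46 (adjusted p = 0.0430) and Plppr3 one of 1.41 (adjusted p = 0.394) in the authors' deposited table.

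**Figure D1:**
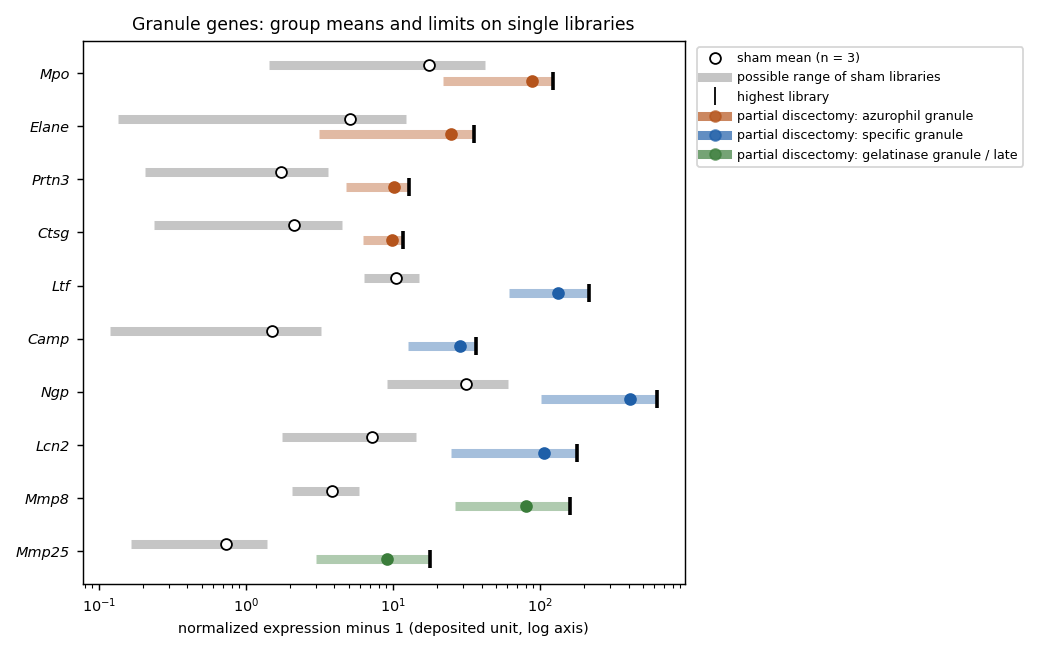
Levels (normalized expression minus 1, log axis) of the 10 genes. Open circles are sham means and filled circles partial discectomy means (n = 3 each), black ticks the highest library, coloured bars the range from the lowest possible partial discectomy library to the highest library, and grey bars the possible range of sham libraries. The coloured and grey bars overlap for Mpo and Elane and are apart for the other 8 genes.

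All 4 specific granule genes rose, and in each the partial discectomy libraries lay above the sham libraries. Ltf encodes lactoferrin, which binds iron (chromosome 9, 111019271 to 111042767). Its level was 133 after partial discectomy and 10.4 in sham. The highest library stood at 214, the other 2 averaged 92.2, and none was under 61.8, while sham libraries stood at 15.0 or less. The authors' deposited table gave Ltf a ratio of 11.7 (6.74 to 20.4, adjusted p = 0.00717). Camp encodes the cathelicidin precursor of an antimicrobial peptide (chromosome 9, 109847379 to 109849617). Its level was 28.7 against 1.51 in sham, with a highest library of 36.7 and a mean of 24.7 in the other 2. The lowest was at least 12.6, and no sham library exceeded 3.24. Camp had a ratio of 11.8 in the authors' deposited table (6.66 to 21.0, adjusted p = 0.00717), and with the floor removed its fold of 19.0 was the largest of its class.

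Ngp, neutrophilic granule protein, is a relative of the cathelicidins (chromosome 9, 110419747 to 110423012). Its level was 410.3 in partial discectomy and 31.1 in sham. The highest library was at 627, the other 2 averaged 302, and the lowest stood at 102 or more, above the highest possible sham library at 60.5. The ratio of Ngp in the authors' deposited table was 12.8 (5.93 to 27.6, adjusted p = 0.00937). Lcn2 encodes lipocalin 2, which binds bacterial iron carriers (chromosome 2, 32384633 to 32388252). Cells other than neutrophils, such as epithelial and bone cells, can also make it. Its level was 106 against 7.22 in sham, with a highest library of 178 and a mean of 70.3 in the other 2. Partial discectomy libraries stood at 25.0 or more and sham libraries at 14.4 or less. The ratio of Lcn2 was 13.04 in the authors' deposited table (5.85 to 29.0, adjusted p = 0.0104). The deposited ratios of the class, 11.7 to 13.04, were close to each other beside their limits. Ltf, Camp and Ngp lie in 1 region of chromosome 9, with 570129 bases between Camp and Ngp and 596258 between Ngp and Ltf.

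Both late genes rose, and both had 1 library far above the other 2. Mmp8 encodes neutrophil collagenase, which cuts fibrillar collagen (chromosome 9, 7558456 to 7568485). It is stored in specific granules in human neutrophils and is placed here with the late class. Its level was 80.0 after partial discectomy and 3.85 in sham. The highest library stood at 160 and held 66.5% of the total of its group (33.3% would be an even share). The other 2 averaged 40.3 with none under 26.2, and sham libraries stood at 5.90 or less, so the groups did not overlap. The authors' deposited table gave Mmp8 a ratio of 16.7 (7.71 to 36.3, adjusted p = 0.00954). Mmp25 encodes a matrix metalloproteinase anchored in the membrane of neutrophils (chromosome 17, 23628311 to 23645277). Its levels were low, 9.04 after partial discectomy and 0.738 in sham. The highest library stood at 17.8, the other 2 averaged 4.68 with none under 2.98, and no sham library exceeded 1.38. In the authors' deposited table Mmp25 had a ratio of 5.78 (2.87 to 11.6, adjusted p = 0.0307). With a sham mean this close to the floor, the ratio depends on how the floor is treated, and the fold with the floor removed was 12.3. In the GENCODE annotation Mmp25 overlaps 2 genes on the other strand, AC154766.2 and AC154766.3.

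**Figure D2:**
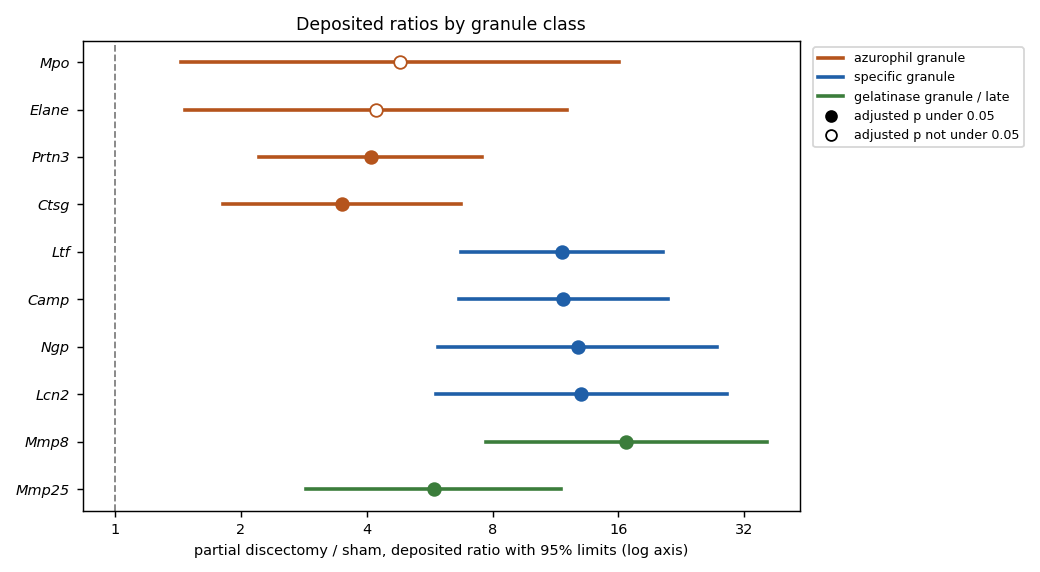
Ratios of the partial discectomy mean to the sham mean in the authors' deposited table (log axis), with bars for the 95% limits and a dashed line at equal means. Filled circles have an adjusted p under 0.05, and the open circles of Mpo and Elane do not; the azurophil ratios lie between 3.50 and 4.80 and the specific ratios between 11.7 and 13.04.

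By class, the median log2 ratio with the floor removed was 2.30 for azurophil genes, 3.80 for specific genes and 4.00 for the late genes, against 0.13 over all genes with both means above 1. The azurophil values ran from 2.22 to 2.55 and the specific values from 3.67 to 4.25, so the values of these classes did not overlap. Each of the 16 pairs of 1 specific and 1 azurophil gene had the larger fold in the specific gene, by 2.17 to 4.06 times. With the floor kept, the range over the 16 pairs was 2.45 to 3.73 in ratios of the authors' deposited table. The 10 genes were measured in the same libraries and the classes hold 2 to 4 genes chosen with results of these data known, so the difference between classes was not tested. The 95% limits in the authors' deposited table overlapped in all but 1 of the 16 pairs, Ltf and Ctsg. Expressed within a group, the level of Mpo was 0.566 of that of Ngp in sham and 0.215 after partial discectomy. The level of Elane was 0.491 of that of Ltf in sham and 0.186 after partial discectomy. Such ratios mix the lengths of both genes, and their change from group to group does not. By the ratio in the authors' deposited table the specific genes ranked 8 to 14 of 23170 genes, Mmp8 5 and Mmp25 46, and the azurophil genes 66 to 159. Together the 10 genes made up 0.171% of the summed levels after partial discectomy and 0.0169% in sham.

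The single highest library weighed more in the classes with the larger folds. It held 39.4% to 48.0% of the partial discectomy total in azurophil genes, 42.7% to 55.8% in specific genes, and 65.5% and 66.5% in the late genes. Without the highest library the median log2 ratio was 2.06 for azurophil, 3.28 for specific and 3.03 for late genes. The specific gene still had the larger fold in 16 of 16 pairs, by 1.74 to 4.33 times. Mmp8 went from a log2 ratio of 4.38 to 3.39, Mmp25 from 3.62 to 2.67, and Camp, the least moved of the specific class, from 4.25 to 4.03. The late median then lay below the specific median. The highest library was left out for each gene separately, which lowers every fold by construction.

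**Figure D3:**
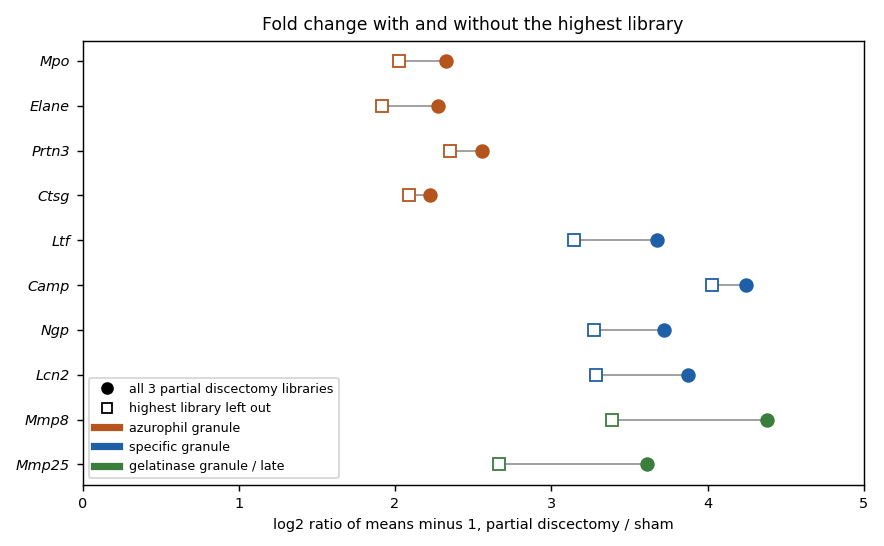
Log2 ratio of means minus 1 for each gene with all 3 partial discectomy libraries (filled circles) and without that gene's highest library (open squares). Azurophil genes stay between 1.92 and 2.55, and the specific genes between 3.15 and 4.25; the longest shifts are those of Mmp8 and Mmp25.

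Other granule genes differed in the same direction, with sizes that varied. The counts of calls in this and the following lists stand beside 2.28% of all genes called higher and 0.104% called lower. Counts by unadjusted p under 0.05 stand beside 10.9% of all genes higher and 767 of 23170 genes lower by that rule. List medians have the floor removed. Ratios in the authors' deposited table keep it, which brings them nearer to 1 in genes of low level. Of 8 further specific granule genes 7 rose and none fell, with a median log2 ratio of 3.22. In the authors' deposited table these included Cd177, a neutrophil surface protein (9.71-fold, adjusted p = 0.00937), Hp, haptoglobin (8.36-fold, adjusted p = 0.00937) and Cybb, the catalytic subunit of the NADPH oxidase (4.17-fold, adjusted p = 0.00937). Of 6 further gelatinase granule genes, with a median log2 ratio of 1.38, 2 rose, Fcnb (ficolin B, 5.38-fold, adjusted p = 0.0186) and Itgam (an integrin chain, 3.39-fold, adjusted p = 0.0104) in the authors' deposited table. Mmp9, the gelatinase of that granule, which bone-resorbing osteoclasts also make, had a ratio of 1.92 (0.898 to 4.11, adjusted p = 0.368) from a level of 599 in sham, per the authors' deposited table. Of 4 further azurophil genes 3 were in the table and none was called, and their median log2 ratio was 0.56. Prss57, a serine protease of that granule, had a ratio of 2.06 in the authors' deposited table (1.43 to 2.96, adjusted p = 0.0541). With the floor removed the fold of Prss57 was 4.06, from levels of 2.15 after partial discectomy and 0.529 in sham. Gusb and Cd63, lysosomal genes that most cells use, differed by 1.46- and 1.30-fold in the authors' deposited table. By unadjusted p under 0.05, 1 of these 3 was higher and 0 lower in the authors' deposited table.

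Genes of the neutrophil surface and cytosol rose as well. All 8 genes of the cytosol and mature neutrophil list rose, with a median log2 ratio of 4.13, and in all 8 the groups did not overlap. The highest value could be placed in all 8. Of the 531 genes of the table where it could be placed, 68.9% had groups apart, and of all genes 1.58%. Of this list the authors' deposited table gave Csf3r, the receptor of the growth factor G-CSF, a ratio of 8.37 (adjusted p = 0.00759), Cxcr2, a chemokine receptor of mature neutrophils, 11.4 (adjusted p = 0.00937) and Retnlg 18.4 (adjusted p = 0.00937). Of 5 genes of secretory vesicles and the surface 3 rose, Fpr2 (a formyl peptide receptor, 3.91-fold), Fcgr3 (an antibody receptor, 2.53-fold) and Itgb2 (an integrin chain, 2.77-fold), in the authors' deposited table. With the floor removed the folds were 9.64, 2.84 and 2.86.

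Among 8 transcription factors of granulocytes, Cebpe rose and the other 7 were not called. Cebpe, needed for specific granules, had a level of 2.63 after partial discectomy and 0.339 in sham, with a ratio of 2.71 in the authors' deposited table (1.92 to 3.84, adjusted p = 0.0140). With the floor removed the fold of Cebpe was 7.76. Gfi1, a repressor needed for neutrophil maturation, had a ratio of 1.97 (adjusted p = 0.0683) and Spi1, which encodes PU.1, one of 2.37 (adjusted p = 0.0752) in the authors' deposited table. Myb, active in progenitors and known to drive Mpo and Elane, had a ratio of 3.65 in the authors' deposited table (1.37 to 9.76, adjusted p = 0.114). Of 8 genes of granule maturation and release 4 rose. Among these the authors' deposited table gave Unc13d, which primes granules for release, 2.62-fold (adjusted p = 0.0134), Rab27a, a small GTPase of granule docking, 3.48-fold (adjusted p = 0.0160) and Srgn, the proteoglycan that holds proteases in granules, 2.76-fold (adjusted p = 0.0392). Ctsc, the dipeptidase that activates the serine proteases, had a ratio of 1.04 in the authors' deposited table (0.764 to 1.42, adjusted p = 0.929). Myb, Ctsc and Mmp9 were chosen after their values were seen.

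Inhibitors and receptors of granule proteins mostly were not called. Of 6 inhibitors 1 rose, Serpinb1a, which blocks elastase, proteinase 3 and cathepsin G inside neutrophils, which the authors' deposited table put at 3.81-fold (2.21 to 6.57, adjusted p = 0.0208). Slpi, a secreted inhibitor of elastase, had a ratio of 2.59 (adjusted p = 0.0882), and Timp2, an inhibitor of matrix metalloproteinases, one of 0.624 in the authors' deposited table (0.321 to 1.21, adjusted p = 0.483). Of 5 receptors 4 were in the table, and Fpr2, which also binds the cathelicidin peptide, was the 1 that rose. Lrp1, a receptor of lactoferrin, had a ratio of 0.711 (adjusted p = 0.650) and Slc22a17, a receptor of lipocalin 2, one of 1.07 (adjusted p = 0.843) in the authors' deposited table. Over all these lists together, 26 of 55 genes in the table rose and none fell, against 2.28% of all genes called higher and 0.104% called lower.

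**Figure D4:**
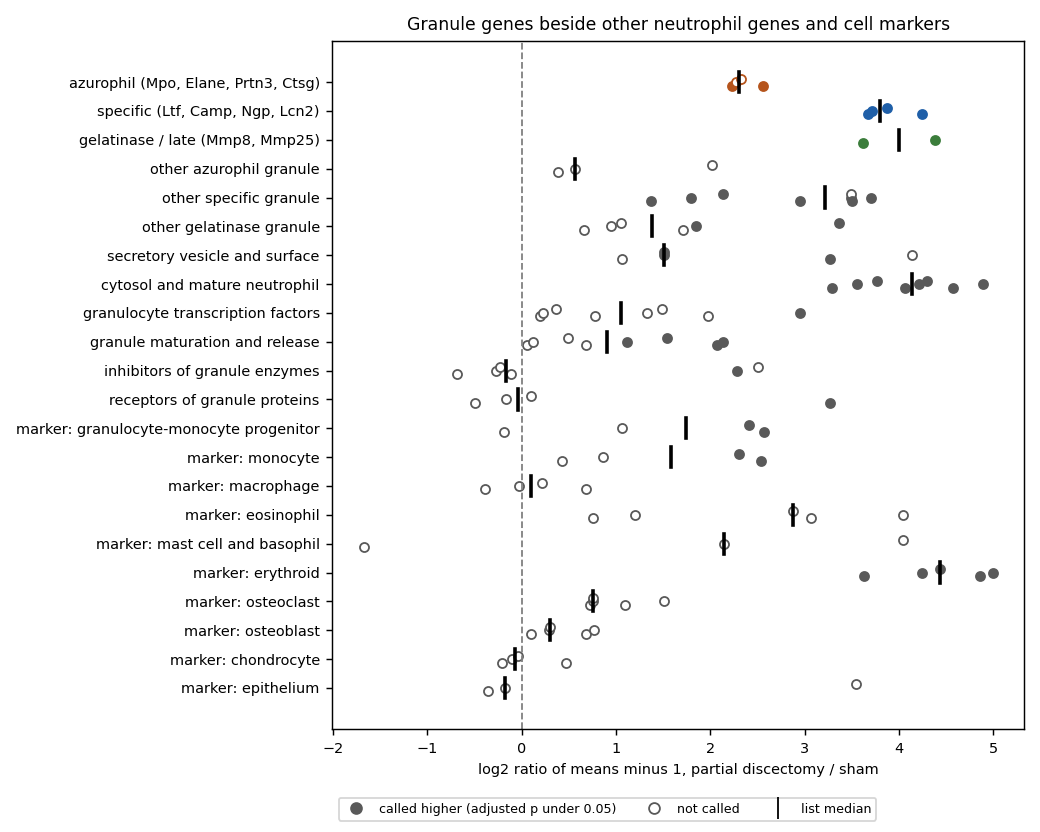
Log2 ratio of means minus 1 of each gene by list, filled where called higher, with a black line at the list median. Of the 10 genes, the specific ones lie between 3.67 and 4.25 and the azurophil ones between 2.22 and 2.55; the further genes of both classes reach lower, the median of the mature neutrophil genes is 4.13, and that of the osteoblast markers 0.30.

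Markers of other cells that could carry granule messages differed by list. Of 4 progenitor markers 2 rose, Ms4a3 of granulocyte-monocyte progenitors (3.26-fold, adjusted p = 0.0198) and Flt3 (2.30-fold, adjusted p = 0.0104), per the authors' deposited table. In the authors' deposited table Kit, a receptor of progenitors and mast cells, had a ratio of 1.81 (adjusted p = 0.109), and Cd34, which vessel cells also make, one of 0.881 (adjusted p = 0.710). The summed level of the 4 was 50.2 after partial discectomy and 46.0 in sham, of which Cd34 held 36.7 and 41.8, and none was at 0. The other 3 summed to 13.4 and 4.21. Of 4 monocyte markers 2 rose, Ccr2 (4.98-fold, adjusted p = 0.0136) and Ly6c2 (4.31-fold, adjusted p = 0.0416), per the authors' deposited table. With the floor removed their folds were 5.82 and 4.95. The summed levels of the 4 were 267 and 139, of which Csf1r held 157 and 86.5 and F13a1 57.3 and 42.7. By unadjusted p under 0.05, all 4 monocyte markers were higher in the authors' deposited table. Of 4 macrophage markers none rose, with summed levels of 62.0 and 51.8. No eosinophil marker of 5 was called, though Epx, eosinophil peroxidase, had a level of 9.18 after partial discectomy and 0.555 in sham, with a ratio of 6.55 (adjusted p = 0.0717) in the authors' deposited table. By unadjusted p under 0.05, 3 eosinophil markers were higher and 0 lower in the authors' deposited table, and the summed levels of the 5 were 26.2 and 4.43. Ctsg is also made by mast cells. Of 5 mast cell and basophil markers 3 were in the table and none was called, with summed levels of 3.74 and 0.605, and 2 higher and 0 lower by unadjusted p under 0.05. Mcpt4, a mast cell protease, was close to the floor at 0.0318 and 0.101. Of 6 epithelial markers, relevant to Lcn2 and Ltf, 3 were in the table with summed levels of 1.65 and 1.14, and none was called. Markers of osteoblasts (5, summed levels 37110 and 29720), chondrocytes (4, 4384 and 3591) and osteoclasts (5, 1917 and 1014) were present in both groups. That is as in the labelled tissue, and none was called. Of the osteoblast sums Col1a1 held 34179 and 27782, and of the chondrocyte sums Col2a1 held 3180 and 2304. Of the 4 chondrocyte markers 1 had a ratio above 1, and the median log2 ratio of that list was -0.07. By unadjusted p under 0.05, 1 osteoclast marker, 1 macrophage marker and 1 epithelial marker were higher in the authors' deposited table. No osteoblast or chondrocyte marker was higher by that rule, and none of these lists had a lower gene. Over all genes, 10.9% were higher and 767 of 23170 lower by the unadjusted rule. The part of any of these cells in the granule genes was not tested.

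The protein-coding genes outside the 10 whose log2 ratio lay nearest to the median of the 10, 3.64, included Alas2 (3.63), Nfe2 (3.67), Cd177 (3.70) and Csf3r (3.56). They were sought among genes with a mean level of at least 5, and likeness rests on 2 group means for each gene. Alas2 encodes the first enzyme of heme synthesis in red cells, and Nfe2 a transcription factor known from red cells and platelets, though not necessarily limited to them. Cd177 and Csf3r are neutrophil genes.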

How the data were processed

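The authors deposited 1 table that compares 3 partial discectomy with 3 sham libraries over 23170 genes. Its signal columns hold normalized values, per the file headers, as a mean per group and as the highest value, total and geometric mean over 6 libraries. It also holds the authors' ratio, its log2, a p-value with its Benjamini-Hochberg adjustment, and a signed fold change with 95% limits (a score, since it can be negative), per the file headers. STAR 2.6.1d and build mm10 were used, per the submitters' processing notes. No source used here gives the counter, gene filter, normalization or model, and sequencing depth is unknown, so no counting interval is given. A count-based test had been laid down in case values per library were present. The authors' statistics were used instead.

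Groups follow the sample titles. With Python 3.11.15 and pandas 2.3.3, 1 was subtracted from each mean, signed limits were turned into ratios, and p-values were readjusted for alternatives. Limits on single libraries use the fact that 6 values with the given sums, highest value and product must exist, which held for 531 of 531 genes checked, and were tested on simulated data. The stop of each gene was reduced by 1, which gave the GENCODE M21 end for all 10 members. Promoter sequences matched 10 of 10 members by symbol. Members, gene lists and motifs were chosen with earlier results of these data known. All 10 members are named. From each other list up to 3 genes with the smallest adjusted p are named, plus genes that go against their list and markers whose level bears on a member. Alternatives were other call rules, another treatment of the floor, scaling, class membership and leaving out the highest library. Of the 5 genes nearest in pattern to the members, 1 is not reported here.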

Additional observations from a re-analysis of the deposited data

How the results depend on the processing

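All 10 granule genes kept a log2 ratio above 0, from 1.81 to 4.34, with the floor kept, 0.1 or 0.5 added, either scaling, or the highest library left out, and none was called lower under any call rule run. The number called, 8, was 8 when adjusted over genes with a mean level of at least 1 and 7 with at least 5, where Mmp25 is under the minimum and was not tested. It was 10 by the 95% limits, whether set against equal means, the median ratio of all genes or the ratio of the sums. This rule is looser, as 11.1% of all genes had limits above equal means. The share of all genes under an adjusted p of 0.01 is not given here. At an adjusted p under 0.01 it was 4 (Ltf, Camp, Ngp and Mmp8), and 6 of the 55 genes of the other granule and neutrophil lists, their inhibitors and receptors included, were called in place of 26. Without the highest library the class median log2 ratio was 3.28 for specific and 3.03 for late genes. With the floor kept, that of the late genes was 3.30, below the 3.62 of the specific genes. The specific median exceeded the azurophil median by 1.50 on the log2 scale, and by 1.23 to 1.58 in the alternatives, which include Mmp8 counted as specific and Lcn2 left out. A shift was called large when it passed the standard error implied by the deposited limits, 0.494 to 0.629 by class. By this rule the specific median shifted by a large amount without the highest library. The late median did so without the highest library and with the floor kept. The azurophil median and the difference of the specific from the azurophil median had no large shift. No paired analysis was possible because the columns hold group means. For that reason leaving out each replicate by name and count-based tests were not run.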

Other observations

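The nearest genes on each side of the 10 granule genes were not called, though some were higher by unadjusted p. Granule genes themselves and genes that overlap them are left out here, which leaves 18 neighbours. By the adjusted p of the authors' deposited table, 0 of these 18 neighbours were called higher and 0 lower. Of all genes 2.28% were called higher and 0.104% lower, so 0 of 18 lies near these shares. By unadjusted p under 0.05, 6 of the 18 were higher and 0 lower, against 10.9% of all genes higher by that rule in the authors' deposited table. Their ratios ran from 0.878 to 2.69 with a median of 1.19 in the authors' deposited table. The highest was that of Mcpt8, a basophil protease next to Ctsg (adjusted p = 0.0784 in the authors' deposited table). On chromosome 9, the authors' deposited table put Cdc25a and Ptpn23, between Camp and Ngp, at 1.49 and 0.930, and Nme6 and Klhl18, on the far sides of Camp and Ngp, at 0.988 and 1.08. Ptbp1, on the far side of Prtn3 from Elane, had a ratio of 1.26 in the authors' deposited table.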
